A study of Mus musculus with 12 samples.

Results

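The late risers were 168 of the 53379 genes listed for mouse bone marrow-derived macrophages (BMDMs), genes whose RNA stood near the untreated level after 1 h of fenoterol and was higher after 4 h. They were chosen on the measured values. Counts were scaled by the total of their library to CPM, which brings all libraries to one total, and 10566 genes had a mean of at least 2 CPM over the 12 libraries. A late riser had such a mean, a 1 h mean between 0.8 times the untreated mean and the reciprocal of that limit, a 4 h mean of at least 1.8 times the untreated mean, each ratio with 0.1 CPM added to both means, and a 4 h value above the untreated value in all 4 mice. Since all 3 groups of libraries chose the genes, the changes given below describe the genes and test nothing about them.

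RNA was sequenced from BMDMs of 4 adult male mice of the C57Bl/6J strain. Bone marrow cells were grown in medium conditioned by L929 cells, which supplies a macrophage growth factor, and 3 cultures per mouse went into the series, 1 without treatment, 1 given 1 µM fenoterol for 1 h and 1 given it for 4 h, with no vehicle named for the untreated culture. No time is given for the untreated cultures, and no untreated culture is matched to 4 h. Effects of fenoterol and of hours in culture can thus not be told apart. No genetic change is named for any group, the 3 groups had 4 libraries each, and libraries with the same mouse number came from the same animal. Cells cultured alone in conditioned medium are a model without the neighbouring cells of a tissue.

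Fenoterol is an agonist of the beta-2 adrenergic receptor, which couples to a stimulatory G protein and raises cyclic AMP (cAMP). Cyclic AMP activates protein kinase A, which phosphorylates CREB, a transcription factor that binds the cAMP response element (CRE) in promoters and induces a first set of genes within the hour. Other genes respond later, and in macrophages the cAMP pathway is known for changing the output of cytokines and chemokines.

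The libraries held 14580533 to 24153284 counts. The macrophage markers summed to 39219 to 44116 CPM in all 12 libraries, while those of dendritic cells, erythroid cells, and mast cells or basophils summed to at most 2.64, 4.21 and 1.98 CPM. The T or NK cell markers summed to 22.2 to 39.2 CPM and the B cell markers to 12.3 to 19.8 CPM. The fibroblast or stromal markers, with *Lum* at 0, summed to 26.7 to 83.5 CPM untreated, 39.7 to 71.1 CPM after 1 h and 31.1 to 81.3 CPM after 4 h, and the osteoclast markers, with *Calcr* at 0, to 176 to 199.9, 160.2 to 182 and 146 to 174 CPM. The neutrophil markers summed to 157 to 195 CPM in untreated BMDMs, 147 to 186 CPM after 1 h and 105 to 126 CPM after 4 h, and their part in the changes below was not tested. None of the 9 marker lists holds a late riser. In RNA from a whole culture, more cells of one kind and more RNA per cell cannot be told apart.

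**Figure D1:**
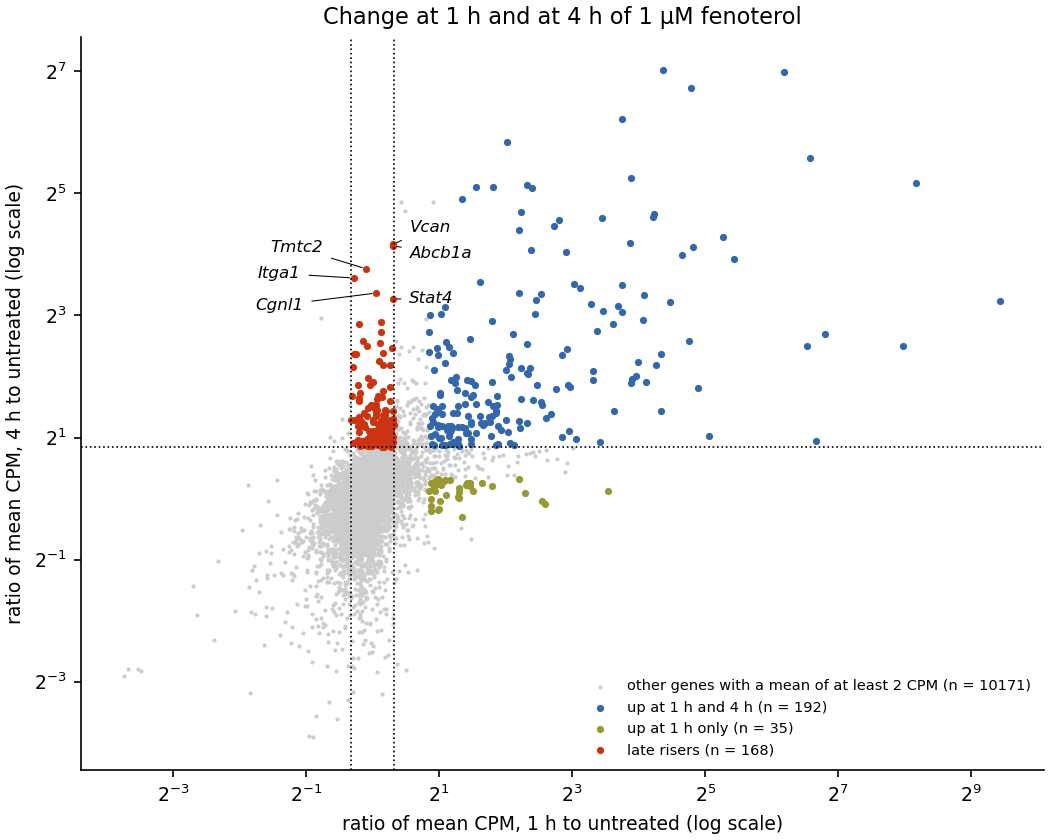
Each point is a gene with a mean of at least 2 CPM, placed by the ratio of its 1 h mean (x axis, log scale) and its 4 h mean (y axis, log scale) to the untreated mean, and the dotted lines are the limits 0.8, its reciprocal and 1.8. The 168 late risers fill the narrow column above 1.8, with *Vcan* and *Abcb1a* at its top at 17.9 and 17.7.

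Together, the late risers took 1.09 to 1.12% of all counts in the untreated libraries, 1.17 to 1.26% after 1 h and 2.36 to 2.68% after 4 h. Their median ratio to untreated was 1.08 at 1 h and 2.13 at 4 h. Of the 168, 16 reached a 4 h ratio of 5 or more, 18 lay from 3 to 5, 66 from 2 to 3, and 68 below 2. In 159 genes the lowest 4 h library was above the highest untreated library, which was so for 22.3% of the 10566 genes at 2 CPM or more. In 157 the lowest 4 h library was above the highest 1 h library, which was so for 28.7% of genes, and 92 genes were at least 1.8 times the untreated value in each of the 4 mice, as were 3.19% of all genes. At 1 h, 148 overlapped the untreated range, 45 were above untreated in all 4 mice and 14 were not above it in any mouse. The same held for 72.0, 15 and 35.8% of genes at 2 CPM or more. The other 109 late risers differed in direction between mice. As the rule used these values, nothing further is read from the counts.

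The limits cut through a continuous range of ratios. The smallest 4 h ratios among the late risers were those of *Lemd2* (1.802), *Oscp1* (1.804), *Cdkl2* (1.806) and *Ankrd50* (1.81), and the nearest genes outside were *Zbtb3* (1.798), *Ints6* (1.796), *Fam214b* (1.792) and *Csgalnact2* (1.787). At the upper 1 h limit, *Cxcl14* (1.245) and *Gins3* (1.243) were inside, and *Creb5* (1.253) and *Ldha* (1.253) were outside. At the lower limit, *Abi3* (0.8019) and *Stxbp6* (0.809) were inside, and *Mtus1* (0.7994) and *Micall2* (0.7915) were outside. *Ccl5*, which encodes a chemokine, met every limit on means and was left out only because its 4 h value was below untreated in mouse 2.

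Membership at the 1 h limits moved with the scaling of the libraries. Scaled by their totals, the 10566 genes had a median 1 h ratio of 0.952, and after scaling by the trimmed mean of M-values (TMM) it was 0.998. With TMM-scaled CPM the same rule gives 136 genes, of which 133 are among the 168. Of the 35 genes lost, 27 passed above the upper 1 h limit, among them *Vcan* at 1.29, *Abcb1a* at 1.29, *Stat4* at 1.29 and *Carmil1* at 1.28. Their 4 h ratios changed little, to 17.6, 17.4, 9.498 and 5.42.

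The rule was also applied to 3 mice at a time and read in the mouse left out, whose values had not chosen the genes. Of the 164, 161, 175 and 154 genes chosen without mice 1, 2, 3 and 4, the left-out mouse had a higher value at 4 h than untreated in 164, 159, 174 and 154. A higher value was common there, as the median 4 h ratio of all genes at 2 CPM or more was 1.017 to 1.023. The left-out mouse reached 1.8 times untreated in 82.9, 82.0, 70.3 and 73.4% of the chosen genes, against 5.36, 5.64, 4.84 and 5.27% of all genes at 2 CPM or more. The median 1 h ratio of these genes in the left-out mouse was 1.04 to 1.08, against 0.944 to 0.960 over all genes at 2 CPM or more, and 70.1, 70.8, 72.0 and 76.6% of them lay within the 1 h limits there, close to the 70.3, 69.8, 75.6 and 75.6% of all genes.

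The promoters were read for the sites of CREB and of AP-1, the factor formed by Fos and Jun proteins. RefSeq promoters of build GRCm38.p6, from 250 bases before to 50 bases after the most upstream start of each gene, were matched to 138 of the 168 genes and searched on both strands for the full CRE (TGACGTCA), for the CRE core (TGACG, which every full CRE also holds), and for the AP-1 site (TGANTCA). The full CRE was found in 4 of 138 late risers (2.90%), the core in 34 (24.6%) and the AP-1 site in 13 (9.42%), and 42 genes held at least 1 of the 3. Among all 8506 promoters of genes at 2 CPM or more these shares were 3.37, 33.6 and 4.63%, and among 153 promoters of genes that were at least 1.8 times untreated at both time points, called sustained genes here, they were 1.31, 37.9 and 10.5%. Of 30 promoters of genes raised at 1 h and back near untreated at 4 h, 2 held the full CRE (6.67%), 18 the core (60%) and 1 the AP-1 site (3.33%). Over all 27025 promoters in the table the shares were 1.85, 20.9 and 7.92%. The 8 other motifs searched were the E-box (CACGTG, 8.70% of late risers and 10.8% of genes at 2 CPM or more), the hypoxia response core (ACGTG, which an E-box also holds, 27.5 and 26.9%), NF-Y (CCAAT, 37.0 and 39.2%), Sp/KLF (GGGCGG, 61.6 and 66.4%), C/EBP (TTGCNNAA, 7.25 and 8.02%), the TATA box (TATAAA, 5.80 and 6.54%), EGR (GCGTGGGCG, 1.45 and 1.27%) and NBRE (AAAGGTCA, 0.725 and 0.811%). Over all promoters, in this order, the shares were 7.24, 19.6, 38.02, 35.9, 10.7, 14.2, 0.622 and 1.46%. A match is a description of the letters and not a bound site.

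The sequences below show these cases, each from before the RefSeq start, 5′ to 3′ on the strand of the gene, with CRE, CRE core and AP-1 matches in capitals. The *Vcan* stretch, chr13:89742513-89742762 (minus strand), belongs to the gene with the largest 4 h ratio and holds none of the 3 motifs. The stretches of *Pde8a*, chr7:81213015-81213264 (plus strand), and *Timp1*, chrX:20869916-20870165 (plus strand), hold 1 CRE core each, 84 bases before the start. The *Oasl1* stretch, chr5:114922990-114923239 (plus strand), holds 2 CRE cores, the second on the opposite strand, and the *Oas3* stretch, chr5:120777662-120777909 (minus strand), holds 2 AP-1 sites and no CRE. The *Syn1* stretch, chrX:20921005-20921118 (minus strand), ends 87 bases before the RefSeq start, where the GENCODE gene begins, and holds a full CRE. By the GENCODE M21 annotation the *Timp1* stretch lies within the *Syn1* gene on the opposite strand, the *Vcan*, *Oasl1* and *Oas3* stretches overlap *Gm4117*, *Gm13822* and *Gm43069*, and the other stretches overlap no gene.
Vcan: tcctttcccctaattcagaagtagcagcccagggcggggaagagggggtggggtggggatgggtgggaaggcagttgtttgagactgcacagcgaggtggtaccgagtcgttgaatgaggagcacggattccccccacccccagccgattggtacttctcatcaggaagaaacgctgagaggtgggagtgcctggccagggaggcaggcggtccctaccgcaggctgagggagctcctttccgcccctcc
Pde8a: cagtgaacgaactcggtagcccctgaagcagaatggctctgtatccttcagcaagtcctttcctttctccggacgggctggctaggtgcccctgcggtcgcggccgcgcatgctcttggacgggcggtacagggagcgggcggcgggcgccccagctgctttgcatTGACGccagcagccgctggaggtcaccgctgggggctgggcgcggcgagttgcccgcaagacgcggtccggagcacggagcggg
Timp1: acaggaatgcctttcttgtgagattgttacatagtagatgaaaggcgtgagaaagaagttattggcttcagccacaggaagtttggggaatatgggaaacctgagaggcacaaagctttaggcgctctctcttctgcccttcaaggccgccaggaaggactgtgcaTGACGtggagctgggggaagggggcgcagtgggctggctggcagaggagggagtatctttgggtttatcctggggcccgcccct
Oasl1: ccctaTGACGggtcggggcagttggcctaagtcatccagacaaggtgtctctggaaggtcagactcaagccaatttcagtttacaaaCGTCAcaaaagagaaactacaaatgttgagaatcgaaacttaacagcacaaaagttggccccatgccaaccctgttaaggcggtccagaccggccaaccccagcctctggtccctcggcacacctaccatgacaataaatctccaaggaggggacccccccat
Oas3: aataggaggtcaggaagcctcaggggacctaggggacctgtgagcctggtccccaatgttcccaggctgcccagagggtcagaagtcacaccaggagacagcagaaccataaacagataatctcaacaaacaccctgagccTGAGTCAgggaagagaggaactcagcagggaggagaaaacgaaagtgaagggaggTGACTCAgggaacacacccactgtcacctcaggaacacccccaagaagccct
Syn1: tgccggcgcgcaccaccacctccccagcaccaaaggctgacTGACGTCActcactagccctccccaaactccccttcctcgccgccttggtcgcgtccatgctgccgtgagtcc

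The other full CREs were in *Zfp523*, *Dus2* and *Gm16062*. The start used is the most upstream one in RefSeq, and 33 of the 138 genes have more than 1 start there, among them *Stat4*, *Sipa1l1*, *Zfp523* and *Lpar1*, so their other promoters were not searched. In 120 of the 138 this start lies within 1 kb of the first base of the GENCODE gene, and in 18 it lies farther, among them *Abcb1a* (93.0 kb upstream), *Atp2b4* (47.3 kb inside the gene), *Dus2* (20.1 kb inside), *Itga9* (105 kb inside), *Tiam1* (169 kb inside) and *Pde7b* (177 kb inside). Of the 15 genes with the largest 4 h ratio, 11 had a promoter, and 3 of these held a CRE core: *Stat4* (12 bases after the start), *Atp2b4* (43 bases after) and *Msrb3* (25 bases before).

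Roles were assigned to the late risers alone, once the set was known, and 51 were left ungrouped. No share over all genes stands beside the sizes of the roles, so nothing is read from them. Of the roles assigned, matrix, adhesion and cell contact held the most late risers, 18, with a median 4 h ratio of 2.81. Versican, the product of *Vcan*, is a large chondroitin sulfate proteoglycan of the extracellular matrix. *Vcan* (chr13:89655312-89742509, minus strand, GRCm38) stood at 1.59, 1.30, 1.24 and 0.617 CPM in the untreated BMDMs of mice 1 to 4, at 1.45, 1.26, 1.995 and 1.27 CPM after 1 h, and at 30.7, 24.6, 20.9 and 15.9 CPM after 4 h. The untreated and 1 h libraries overlapped, every 4 h library lay far above them, and the 4 h value was 15.7 to 22.3 times untreated over the mice.

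*Nid2*, which encodes the basement membrane protein nidogen-2, stood at 7.13, 6.10, 5.52 and 5.67 CPM untreated, 6.41, 6.29, 7.69 and 6.24 CPM after 1 h and 35.3, 47.3, 42.5 and 39.4 CPM after 4 h. *Itga1*, the integrin alpha-1 chain that forms a collagen and laminin receptor, was low in untreated cells at 0.886, 0.343, 0.447 and 0.954 CPM, was 0.401, 0.656, 0.779 and 0.254 CPM after 1 h, and 12.8, 11.0048, 6.07 and 6.83 CPM after 4 h. *Pecam1*, an adhesion molecule of endothelial cells and leukocytes, went from 0.886, 2.06, 1.44 and 0.673 CPM to 0.601, 1.64, 0.973 and 1.12 CPM and then to 8.11, 12.3, 9.04 and 9.98 CPM. In each of these 3 genes the 1 h libraries overlapped the untreated ones and all 4 h libraries were higher than both.

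*Cgnl1*, which encodes paracingulin, a protein of tight and adherens junctions, had the fifth largest 4 h ratio. It stood at 24.3, 17.9, 18.9 and 17 CPM untreated, 23.2, 16.3, 22.8 and 18.9 CPM after 1 h and 217, 219, 198 and 175 CPM after 4 h, a 4 h ratio of 10.3 with 8.92 to 12.2 over the mice. *Antxr2*, a transmembrane receptor that binds laminin and type IV collagen, went from 193, 181, 198 and 194 CPM to 220.3, 219.9, 217 and 201 CPM and 826, 1025, 824 and 832 CPM, mouse 2 being highest at 4 h. *Itga9*, another integrin alpha chain, went from 18.4, 26.7, 23.0 and 27.7 CPM to 19.8, 24.3, 25.6 and 23.6 CPM and 72.5, 101, 92.7 and 84.1 CPM.

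Smaller changes in this group came from *Timp1*, the tissue inhibitor of metalloproteinases, and *Chst11*, which sulfates chondroitin. *Timp1* read 2.88, 1.92, 2.88 and 1.85 CPM, 3.65, 3.17, 1.90 and 2.18 CPM and 6.81, 3.09, 4.03 and 4.35 CPM in the 3 groups, so that the 4 h libraries overlapped the 1 h ones. *Chst11* read 9.57, 5.83, 7.80 and 6.34 CPM, 12.2, 7.44, 8.66 and 7.76 CPM and 22.6, 13.2, 13.6 and 11.8 CPM, mouse 1 being highest in every group. *Xylt1*, which starts the sugar chains of proteoglycans, rose from a mean of 53.0 ± 9.19 CPM (SD, n = 4) to 127 ± 32.4 CPM, and *Ptk2*, the focal adhesion kinase, from 18.1 ± 2.19 CPM to 34.6 ± 1.31 CPM.

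**Figure D2:**
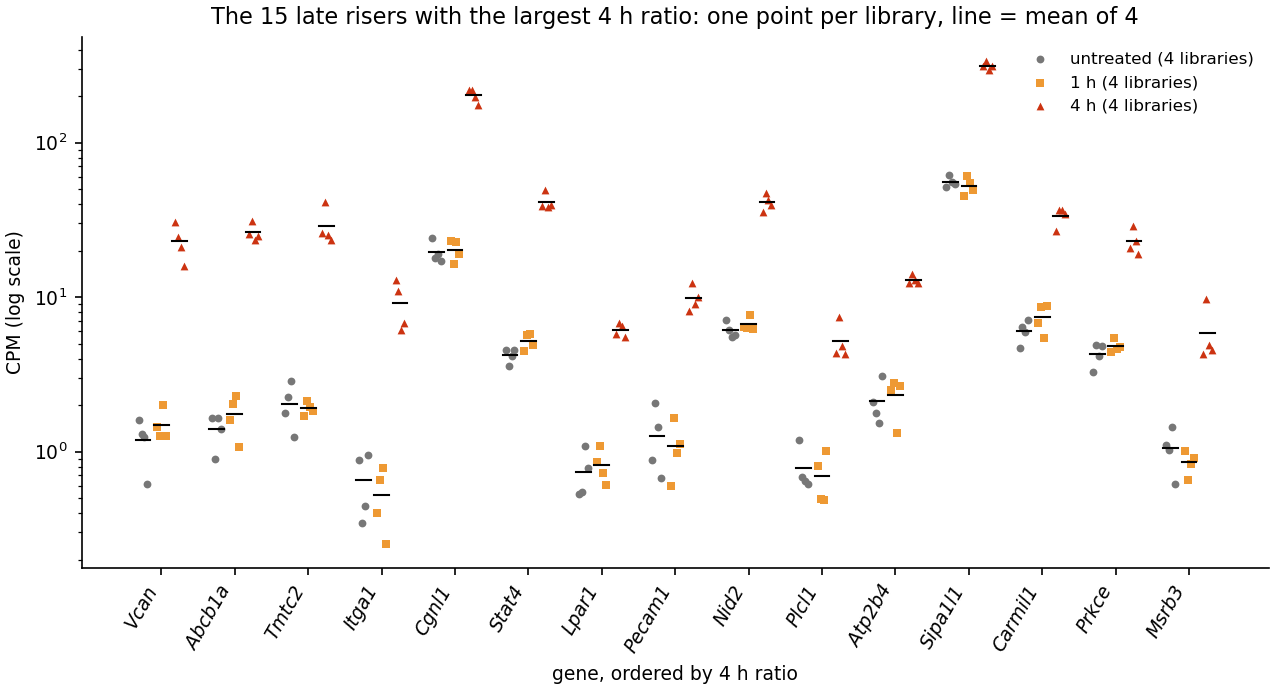
The CPM of the 15 late risers with the largest 4 h ratio (y axis, log scale), 1 point per library and a black line at the mean of 4, ordered along the x axis by that ratio. The 1 h squares overlap the untreated circles in every gene, and all 4 h triangles lie above both.

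Signalling through second messengers was represented by 14 late risers with a median 4 h ratio of 2.65, in levels from receptor to effector. *Lpar1*, a receptor for lysophosphatidic acid that couples to several G proteins, stood at 0.531, 0.549, 1.09 and 0.785 CPM untreated, 0.851, 1.09, 0.73 and 0.609 CPM after 1 h and 5.73, 6.78, 6.51 and 5.51 CPM after 4 h. *Grk5*, a kinase that phosphorylates active receptors of this class, stood at 20.4, 17.3, 16.8 and 19.0 CPM, 19.1, 16.6, 16.2 and 16.3 CPM and 34.7, 39.4, 34.1 and 31.2 CPM. The 4 h libraries of both genes lay above all untreated and 1 h libraries.

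Cyclic AMP is broken down by phosphodiesterases, and 2 of them were late risers. *Pde8a*, a high-affinity cAMP phosphodiesterase, stood at 59.2, 54.6, 63.3 and 54.8 CPM untreated, 63.6, 60.4, 62.8 and 56.2 CPM after 1 h and 171, 194, 181 and 178 CPM after 4 h. *Pde7b*, also specific for cAMP, stood at 13.9, 17.01, 22.4 and 12.01 CPM, 16.6, 16.6, 24.7 and 13.6 CPM and 34.7, 43.0, 40.8 and 39.4 CPM. The 4 libraries of each group were tighter in *Pde8a*, whose 4 h value was 2.86 to 3.54 times untreated, than in *Pde7b*, with 1.82 to 3.26.

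*Crtc3*, a coactivator of CREB, and *Sik3*, a kinase that keeps such coactivators in the cytoplasm, had small 4 h ratios of 2.32 and 1.83. *Crtc3* read 48.9, 46.0, 37.4 and 45.7 CPM, 52.5, 55.8, 47.3 and 58.1 CPM and 100.1, 109, 93.2 and 111 CPM in the 3 groups and was above untreated in all 4 mice already at 1 h. *Sik3* read 87.6, 89.5, 86.9 and 76.4 CPM, 71.9, 79.4, 75.9 and 70.0 CPM and 154, 158, 155 and 156 CPM, below untreated in all 4 mice at 1 h and above it in all 4 at 4 h. The 1 h change of *Sik3* was not called by edgeR (adjusted p 0.18). Both are lost from the set with TMM-scaled CPM, *Crtc3* by its 1 h ratio of 1.26 and *Sik3* by its 4 h ratio of 1.797, just under the limit.

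Calcium and phosphoinositide genes had larger ratios. *Prkce*, the calcium-independent protein kinase C epsilon, stood at 3.28, 4.87, 4.17 and 4.83 CPM untreated, 4.41, 5.47, 4.62 and 4.77 CPM after 1 h and 20.9, 28.6, 23.0 and 19.0 CPM after 4 h. *Atp2b4*, a plasma membrane calcium pump, went from 2.08, 1.78, 1.54 and 3.09 CPM to 2.503, 2.79, 1.31 and 2.64 CPM and 12.3, 14.1, 12.97 and 12.3 CPM. *Plcl1*, a catalytically inactive relative of phospholipase C, went from 1.196, 0.686, 0.646 and 0.617 CPM to 0.801, 0.492, 0.487 and 1.01 CPM and 4.32, 7.37, 4.81 and 4.26 CPM.

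*Pitpnc1*, which transfers phosphatidylinositol and phosphatidic acid between membranes, stood at 84.7, 86.8, 78.2 and 73.9 CPM, 91.8, 89.5, 85.8 and 77.8 CPM and 405, 452, 351 and 336 CPM, a 4 h ratio of 4.77. In all 4 mice the 4 h value of each of these genes was above every untreated and 1 h library.

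Transcription and chromatin regulators numbered 12, with a median 4 h ratio of 2.34. *Stat4*, which carries interleukin-12 and interferon signals to the nucleus, stood at 4.56, 3.57, 4.17 and 4.54 CPM untreated, 4.51, 5.69, 5.79 and 4.87 CPM after 1 h and 38.8, 49.3, 38.5 and 39.4 CPM after 4 h. *Glis3*, a Krüppel-like zinc finger factor, stood at 7.93, 10.8, 7.80 and 8.98 CPM, 7.36, 8.42, 6.42 and 7.71 CPM and 42.1, 59.1, 44.6 and 39.9 CPM, with the 1 h value below the untreated one in all 4 mice. That 1 h change was not called by edgeR (adjusted p 0.51). *Stat3*, the signal transducer downstream of interleukin-10 and interleukin-6 receptors, stood at 246, 241, 224 and 233 CPM, 270.1, 308, 262 and 279 CPM and 477, 461, 412 and 437 CPM and was higher than untreated in all 4 mice at 1 h too.

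Other regulators are given as means. *Runx2*, a factor of bone and osteoclast biology, had 3.49 ± 0.507 CPM untreated and 11.1 ± 1.60 CPM at 4 h (SD, n = 4). *Jarid2*, a subunit of the Polycomb repressive complex PRC2, had 54.2 ± 5.97 and 148 ± 25.9 CPM, and *Elk3*, an ETS factor, had 96.8 ± 2.10 and 237 ± 11.5 CPM. *Elk3* was lower at 1 h, at 80.8 ± 4.13 CPM, and *Cry1*, a repressor of the circadian clock, went from 11.3 ± 1.07 to 20.98 ± 1.09 CPM.

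Only *Vcan* had a larger 4 h ratio among the 168 than a gene of membrane transport. *Abcb1a*, which encodes the drug efflux pump P-glycoprotein, stood at 1.64, 0.892, 1.64 and 1.40 CPM untreated, 1.60, 2.02, 2.29 and 1.07 CPM after 1 h and 25.8, 30.9, 23.6 and 24.8 CPM after 4 h. Of the 50-base stretches of its transcripts, 22.5% also occur in other genes, mainly its paralogue *Abcb1b*, so part of its reads could be counted to either or dropped. *Slc22a4*, an organic cation transporter, went from 6.09 ± 1.35 CPM to 19.8 ± 4.24 CPM.

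Regulators of actin and of small GTPases made up 15 late risers, with a median 4 h ratio of 2.14. *Sipa1l1*, a GTPase-activating protein for Rap, stood at 51.3, 62.0, 55.2 and 53.8 CPM untreated, 44.8, 60.6, 54.8 and 49.3 CPM after 1 h and 314, 338, 296 and 311 CPM after 4 h, a 4 h ratio of 5.65 with 5.35 to 6.11 over the mice. Its relative *Sipa1l2* stood at 36.4, 36.9, 36.0 and 40.9 CPM, 40.5, 44.9, 45.7 and 48.2 CPM and 130.2, 137, 136 and 129.7 CPM. *Carmil1*, which regulates capping of actin filaments, stood at 4.69, 6.38, 5.91 and 7.13 CPM, 6.76, 8.58, 5.45 and 8.78 CPM and 26.9, 36.5, 36.7 and 34.7 CPM.

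In each of these 3 genes the 4 h libraries lay above all the others. *Tiam1* and *Dock4*, which activate the GTPase Rac, read 40.9 ± 9.08 and 41.1 ± 2.35 CPM untreated against 84.4 ± 5.52 and 79.5 ± 4.20 CPM at 4 h (SD, n = 4). *Arpc3*, a subunit of the Arp2/3 complex that branches actin filaments, was abundant, at 626, 606, 648 and 606 CPM untreated, 773, 765, 730.4 and 728 CPM after 1 h and 1194, 1319, 1186 and 1161 CPM after 4 h, and it was above untreated in all 4 mice at 1 h.

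Chemokines and immune receptors were 14 genes, with a median 4 h ratio of 2.20 and a highest of 2.89. *Ccl9* and *Ccl6*, neighbouring CC chemokine genes made by mouse macrophages, lie 9.25 kb apart on chromosome 11. *Ccl9* stood at 859, 797, 901 and 820.3 CPM untreated, 1046, 935, 932 and 913 CPM after 1 h and 1916, 1992, 1760.0 and 1939.7 CPM after 4 h. *Ccl6* stood at 517, 445, 504 and 422 CPM, 623, 518, 529 and 437 CPM and 1115, 1010.0, 831 and 952 CPM.

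The monocyte chemoattractants *Ccl2* and *Ccl7*, 8.26 kb apart on the same chromosome, differed more between mice. *Ccl2* read 3.81, 3.09, 6.01 and 4.43 CPM untreated, 6.41, 3.72, 6.13 and 3.65 CPM after 1 h and 10.2, 5.04, 10.7 and 6.91 CPM after 4 h, and *Ccl7* read 1.95, 1.17, 1.89 and 1.51, 1.65, 1.04, 2.58 and 1.12 and 4.59, 1.19, 4.13 and 2.73 CPM. In both the 4 h libraries overlapped the untreated ones, mouse 2 being lowest at 4 h. *Cxcl14*, another chemokine, read 2.39, 1.71, 2.98 and 3.42 CPM, 3.30, 1.75, 3.26 and 4.87 CPM and 5.84, 4.77, 7.19 and 6.96 CPM.

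*Clec4d*, a C-type lectin receptor for mycobacterial glycolipids, had the highest level per length of exon in the set, 462 CPM per kb untreated, 523 CPM per kb after 1 h and 1020.2 CPM per kb after 4 h. Its counts were 782, 719.8, 756 and 699 CPM, 912, 900.2, 745 and 786 CPM and 1632, 1789, 1460.4 and 1644 CPM in the 3 groups. *Csf2rb2*, the mouse-specific beta chain of the interleukin-3 receptor, stood at 559, 525, 501 and 499.8 CPM, 664, 665, 598 and 609.7 CPM and 1137, 1260.3, 1089.8 and 1080.1 CPM. Of its 50-base stretches, 18.9% are shared, mainly with its paralogue *Csf2rb*.

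The secretory pathway and protein folding gave 10 late risers. *Tmtc2*, an endoplasmic reticulum protein that adds mannose to cadherins, stood at 1.77, 2.26, 2.88 and 1.23 CPM untreated, 1.70, 2.13, 1.95 and 1.83 CPM after 1 h and 26.0, 41.1, 25.3 and 23.4 CPM after 4 h, with mouse 2 highest at 4 h. *Man2a1*, a mannosidase of the Golgi, stood at 140.2, 131, 133 and 132 CPM, 143, 129.9, 149 and 118 CPM and 449, 606, 464 and 497 CPM. *Hyou1*, a chaperone of the endoplasmic reticulum, stood at 85.6, 79.4, 82.9 and 86.1 CPM, 95.1, 81.5, 92.6 and 86.9 CPM and 179, 151, 144 and 141 CPM.

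Interferon-induced genes were 5, all with 4 h ratios from 1.84 to 2.18. *Oasl1*, a relative of the oligoadenylate synthetases, stood at 5.09, 10.9, 17.9 and 6.45 CPM untreated, 10.5, 7.49, 16.0 and 8.47 CPM after 1 h and 19.0, 15.4, 27.9 and 26.2 CPM after 4 h. *Oas3*, an oligoadenylate synthetase that senses double-stranded RNA, stood at 61.5, 77.7, 129 and 47.1 CPM, 101, 62.6, 145 and 68.9 CPM and 142, 116, 183 and 154 CPM. Mouse 3 had the highest untreated level of both, and its untreated value was above the lowest 4 h value of another mouse. Of 26 genes on an interferon-stimulated list, 4 were called higher and 2 lower at 4 h, where 19.7% of all genes were called higher and 20.4% lower.

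Lipid and nucleotide enzymes numbered 14. *Gda*, guanine deaminase, stood at 33.9, 33.9, 33.6 and 40.3 CPM untreated, 42.0, 42.4, 39.9 and 45.5 CPM after 1 h and 168, 151, 123 and 202 CPM after 4 h. The stearoyl-CoA desaturases *Scd2* and *Scd1*, which introduce a double bond into fatty acids and lie 87.6 kb apart on chromosome 19, were highest in mouse 1 throughout. *Scd2* stood at 128, 59.4, 89.3 and 72.7 CPM, 142, 66.4, 99.4 and 79.9 CPM and 441, 212, 227 and 228 CPM, and *Scd1* at 9.79, 2.47, 4.32 and 5.61 CPM, 10.4, 3.39, 4.43 and 4.21 CPM and 27.0, 6.13, 6.90 and 8.40 CPM.

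The 4 h value over the untreated value of the same mouse was from 2.54 to 3.57 for *Scd2* and from 1.49 to 2.74 for *Scd1*. *Agpat4*, an acyltransferase of phospholipid synthesis, had 19.2 ± 1.58 CPM untreated and 46.8 ± 1.89 CPM at 4 h (SD, n = 4). *Gapdh*, on the glycolysis list, was counted at 2.81 ± 0.56 CPM untreated and 5.97 ± 0.483 CPM at 4 h, and 25.1% of its 50-base stretches occur in other genes. This is a low count on a list of 19 genes that summed to 3401 to 3680 CPM in the untreated libraries. The part of the sharing in the count was not tested, so the count of *Gapdh* may not give its level.

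*Ctsl*, which encodes the lysosomal protease cathepsin L, is shown as the 1 lysosomal protease of the set. It stood at 2039.5, 2159, 2018 and 2145 CPM untreated, 2412, 2464, 2137 and 2274 CPM after 1 h and 4629.9, 4532, 4013 and 4399.7 CPM after 4 h. The 1 h value was above untreated in all 4 mice. An antisense gene overlaps 26.8% of its exon bases, and the strand setting of the counting was not stated. The 12 other kinases, phosphatases and scaffolds had 4 h ratios from 1.81 to 2.90. Among them *Spag9*, a scaffold of JNK and p38 signalling, stood at 214, 190.5, 191 and 206 CPM, 242, 228, 232 and 223 CPM and 527, 581, 521 and 548 CPM. *Msrb3*, which reduces oxidized methionine, stood at 1.107, 1.03, 1.44 and 0.617 CPM, 1.001, 0.656, 0.827 and 0.913 CPM and 4.27, 9.70, 4.91 and 4.55 CPM, mouse 2 being highest at 4 h.

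**Figure D3:**
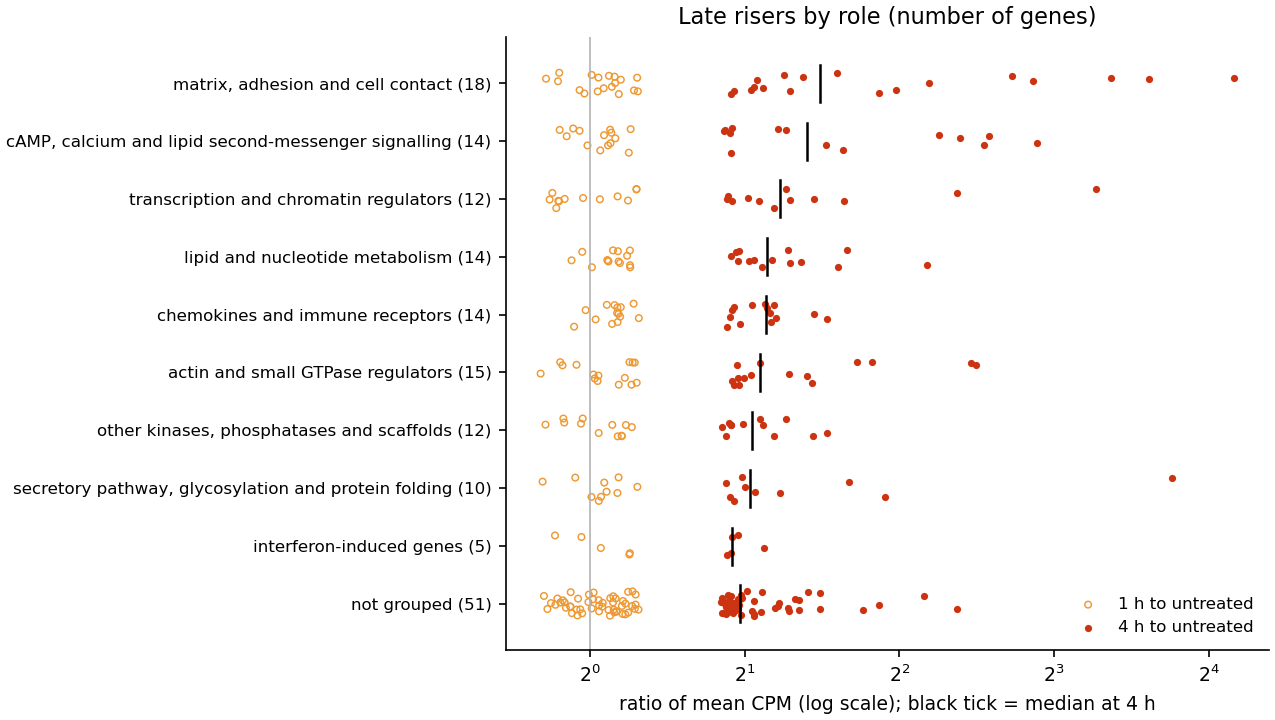
The ratio of mean CPM to untreated (x axis, log scale) of each late riser at 1 h (open circles) and at 4 h (filled circles), in rows by the role assigned to it, with a black tick at the median 4 h ratio. The 2 membrane transporters and *Ctsl* are not drawn. Of the roles drawn, matrix, adhesion and cell contact has the highest median at 2.81 and interferon-induced genes the lowest at 1.89, and 51 genes were not assigned a role.

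Counts of some late risers cannot be separated from those of other genes. In 23 of the 168 more than 10% of the 50-base stretches of the transcripts, on either strand, also occur in another gene, and in 7 an opposite-strand gene overlaps more than 20% of the exon bases. The highest shares were those of *Smco3* (93.0%, *BC049715* lying opposite), *Abi3* (66.7%, *Zfp652* lying opposite), *Ifitm2* (48.5%) and *Raet1e* (44.7%, with *Raet1d*). *Gm11814*, whose sequence is shared with *Ldha*, stood at 4.34, 4.595, 3.63 and 0.112 CPM untreated and 9.78, 7.26, 7.73 and 0.166 CPM at 4 h, near 0 in every library of mouse 4.

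Late risers spanned more of the genome than most genes. From the first to the last base annotated in GENCODE M21, introns included, their median span was 60.5 kb, against 23.7 kb for all 10566 genes at 2 CPM or more, 21.1 kb for the 192 sustained genes and 30.6 kb for the 35 genes raised at 1 h only. Spans of 100 kb or more were found in 66 of 168 (39.3%), in 11.8% of all genes at 2 CPM or more, in 7.81% of the sustained genes and in none of the 35. The 15 genes with the largest 4 h ratio had a median span of 120 kb, and 11 of them were 100 kb or longer. The spans of late risers ran from 0.929 kb in *Gm11814* to 490.1 kb in *Prkce*. The span was not used in choosing them, but genes are not independent replicates and no test is given for these differences.

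Among all genes that were at least 1.8 times untreated at 4 h and higher in all 4 mice, the share of late risers rose with span. It was 23.4% of 184 genes under 20 kb, 24.6% of 134 from 20 to 50 kb, 35.1% of 74 from 50 to 100 kb, 53.7% of 54 from 100 to 200 kb, and 84.1% of 44 at 200 kb or more. The share of sustained genes fell over the same bins from 50.5 to 44.0, 33.8, 22.2 and 6.82%. Only 3 of the 44 longest genes were sustained and 37 were late risers. The median 1 h ratio fell with span from 1.86 to 1.01, while the median 4 h ratio stayed between 2.34 and 2.81.

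**Figure D4:**
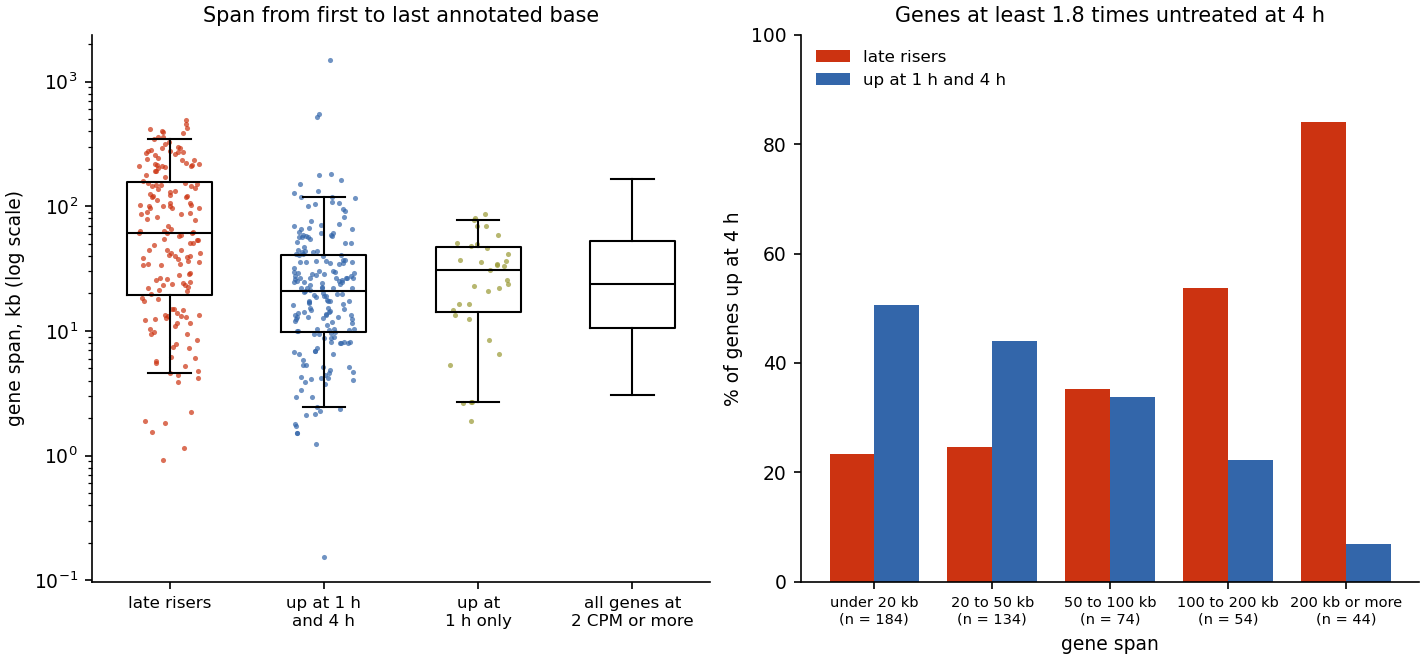
Left, the span of each gene in kb (log scale) for late risers, genes up at both times, genes up at 1 h only and all genes at 2 CPM or more, with boxes at the quartiles, a line at the median and whiskers from the 5th to the 95th percentile. Right, the share of late risers and of genes up at both times among genes up at 4 h, by span, where late risers go from 23.4% under 20 kb to 84.1% at 200 kb or more.

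Span differed by role. The median was 238 kb in actin and small GTPase regulators, 213 kb in transcription and chromatin regulators, 147 kb in matrix and adhesion genes and 120 kb in second-messenger genes. It was 12.0 kb in chemokines and immune receptors and 9.39 kb in interferon-induced genes. Over the 168 genes, Spearman's rank correlation between span and 4 h ratio was 0.32, between summed exon length and 4 h ratio 0.19, and between untreated level and 4 h ratio -0.21. The 15 genes with the largest 4 h ratio had a median untreated level of 2.04 CPM, and the other late risers 16.3 CPM. The 25 late risers under 2 CPM untreated met the minimum mean only through their treated libraries. This difference was thus set in part by the rule and by ranking on the ratio. The untreated mean is also the divisor of the 4 h ratio, which the rule limited from below. The correlation with untreated level was thus partly built in, and nothing is read from its sign. The correlations of span and summed exon length with the 4 h ratio describe only genes chosen on that ratio. Over the 490 of 491 genes up at 4 h that have an annotated span the correlation was -0.33 between span and 1 h ratio and -0.21 between summed exon length and 1 h ratio. These describe genes measured in the same libraries. The 243 genes that were near untreated at 1 h and lower at 4 h by the mirrored rule had a median span of 67.2 kb, and 39.5% of them spanned 100 kb or more.

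Several late risers lay near each other, and how often other genes do so was not counted. Apart from the chemokine and desaturase pairs, neighbours within 200 kb included *Tnfrsf26* and *Tnfrsf22*, 6.08 kb apart, *Inf2* and *Adssl1*, 4.49 kb apart, *Tspan3* and *Peak1*, 35.6 kb apart, and *Mtfr2* and *Pde7b*, 36.7 kb apart. *Timp1* lies inside *Syn1* on the other strand. *Tnfrsf26* stood at 23.3 ± 5.85 CPM untreated and 63.5 ± 8.90 CPM at 4 h, and *Tnfrsf22* at 4.35 ± 0.654 and 8.38 ± 0.902 CPM (SD, n = 4).

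The fit over all genes, with edgeR's quasi-likelihood test and an adjusted p under 0.05 as the threshold, tested 12386 genes, all 168 late risers among them. It called 164 of the 168 higher at 4 h than untreated, where 19.7% of all genes were so called, and 161 higher at 4 h than at 1 h, where 18.7% were. As the rule used these contrasts, the counts say nothing further of the genes. The 4 not called at 4 h were *Scd1*, *Myom1*, *Gm11814* and *Ccl7*, and with the mouse as a block all 168 were called in both contrasts, where 23.6 and 23.0% of all genes were.

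At 1 h, 31 late risers passed the test, 29 higher and 2 lower (*Elk3* and *Uvrag*), where 20.1% of all genes passed, 10.0% higher and 10.1% lower. With the mouse as a block 48 passed, where 27.0% of all genes did. *Zdhhc21*, *Zfp523*, *Dus2*, *Anks1*, *Csf2rb2* and *Arpc3* were among those that passed, with log2 changes at 1 h of 0.38, 0.37, 0.37, 0.37, 0.35 and 0.34. The median log2 change of the 168 was 0.18 at 1 h and 1.08 at 4 h, beside 0.00 at both times over all genes tested. P-values measure the spread between cultures of these 4 mice.

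Of 21 pathway lists, 8 held a late riser. These were 12 of the 409 list genes tested, where 168 of all 12386 genes tested were late risers. Over all genes tested, 19.7% were called higher and 20.4% lower at 4 h. On the list of matrix, coagulation and fibrinolysis, 11 of 27 genes tested were higher and 5 lower at 4 h, against 6 and 1 at 1 h, and *Vcan*, *Nid2* and *Timp1* were late risers. On the list of cAMP degradation and protein kinase A, 10 of 18 were higher and 4 lower at 4 h, against 5 and 2 at 1 h. There, *Pde4d* and *Pde4b* were called higher at both times, with log2 changes of 3.16 and 3.39 at 1 h, while *Pde8a* and *Pde7b* were called at 4 h and not at 1 h. *F5*, coagulation factor V, and *Pde10a* had larger fitted 4 h changes than any late riser (log2 4.89 and 4.46, against at most 4.23) with an adjusted p by edgeR of 0.30 and 0.62 at 1 h, and did not meet the limits of the rule.

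The interferon-stimulated list held *Oas3* and *Oasl1*. The remaining lists with a late riser were glycolysis (12 of 19 higher and 1 lower at 4 h), receptors that couple to G proteins (8 of 25 higher, 12 lower), the unfolded protein response (8 of 13 higher, 1 lower), pattern recognition (8 of 24 higher, 8 lower) and junction proteins (4 of 11 higher, 2 lower), and on these 5 lists the late risers were *Gapdh*, *Lpar1*, *Hyou1*, *Clec4d* and *Cgnl1*. No gene of the ribosome biogenesis, cholesterol synthesis, lipid droplet, cytokine receptor or nuclear receptor lists was a late riser. With 168 late risers among 12386 genes tested, a short list can easily hold none, and nothing is read from this. On the cholesterol list 16 of 21 were called higher at 4 h and 6 already at 1 h.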

How the data were processed

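Total RNA of BMDMs from 4 mice, untreated or after 1 h or 4 h of 1 µM fenoterol, was made into stranded mRNA libraries. The authors deposited 1 table of raw read counts per gene, 1 column per library. The submitters' processing notes name TopHat2 2.0.11, HTSeq 0.8.0 and build GRCm38, and the strand option and annotation release are not given in the sources used here. Of 53379 genes listed, 53274 were matched to GENCODE M21, which gave spans, exon lengths and overlaps, and 29819 had no count in any library.

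CPM used library totals. Late risers were chosen as given in the report, and the genes and lists were chosen with earlier results of these data known. Genes with low counts were removed by edgeR's filter, and all 12 libraries were fitted together with edgeR 4.0.16 (TMM, quasi-likelihood test, Benjamini-Hochberg adjustment over 12386 genes) in R 4.3.3. RLE scaling, library size only, no filter, limma-voom (limma 3.58.1), DESeq2 1.42.0, each library left out and the mouse as a block were alternatives. The steps were tested on simulated data.

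The labels number the mice, and deviations from group means correlated at 0.29 to 0.56 in the 12 same-mouse pairs and at -0.30 to 0.09 in the 36 others over 12386 genes, so the numbers pair the libraries. Named genes were the 15 largest 4 h ratios, the 8 highest 4 h means, those on a pathway list, those at the limits of the rule, those with 1 library apart from its group, and those lost with TMM-scaled CPM. Further genes were named by roles assigned once the set was known. Libraries of a group came from separate mice, and Poisson error at these depths is largest for the genes under 2 CPM. Some results are not reported here.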

Additional observations from a re-analysis of the deposited data

Results flagged for a closer look

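Among 504 groups of 4 libraries (168 genes in 3 groups), 37 had 1 library farther from the other 3 than Dixon's 95% limit for 4 values allows, and chance gives about 1 in 20, or 25.2. They fell in mice 1 to 4 in 11, 12, 7 and 7 groups. The values of 35 are given here, in CPM, with the range of the other 3 libraries. Untreated libraries that stood high included *Plcl1* in mouse 1 (1.196 against 0.617 to 0.686), *Gda* in mouse 4 (40.3 against 33.6 to 33.9), *Myo1d* in mouse 1 (1.77 against 1.57 to 1.59) and *Olfml2b* in mouse 4 (2.41 against 1.84 to 1.92). Untreated libraries that stood high also included *Smco3* in mouse 3 (2.43 against 1.15 to 1.30) and *Ppp2r1b* in mouse 3 (66.1 against 55.3 to 57.0). Untreated libraries that stood low included *Ralgps1* in mouse 2 (17.1 against 17.8 to 17.9), *Nhsl2* in mouse 3 (29.2 against 32.7 to 33.1), *Ksr2* in mouse 4 (1.35 against 1.89 to 1.92) and *Mrm2* in mouse 3 (7.15 against 8.28 to 8.44). Libraries taken after 1 h that stood high included *Nid2* in mouse 3 (7.69 against 6.24 to 6.41), *Mefv* in mouse 4 (5.28 against 3.05 to 3.39), *Ccl9* in mouse 1 (1046 against 913 to 935) and *Scd1* in mouse 1 (10.4 against 3.39 to 4.43). Libraries taken after 1 h that stood high also included *Higd1a* in mouse 3 (5.74 against 5.02 to 5.09) and *Grk5* in mouse 1 (19.1 against 16.2 to 16.6). Libraries taken after 1 h that stood low included *Dnajc12* in mouse 2 (11.8 against 13.6 to 13.97), *Gapdh* in mouse 4 (2.74 against 3.40 to 3.50) and *Smpdl3b* in mouse 2 (11.4 against 14.4 to 14.4). Libraries taken after 1 h that stood low also included *Ankrd50* in mouse 1 (58.8 against 66.8 to 67.7). Libraries taken after 4 h that stood high included *Tmtc2* in mouse 2 (41.1 against 23.4 to 26.0), *Stat4* in mouse 2 (49.3 against 38.5 to 39.4), *Msrb3* in mouse 2 (9.70 against 4.27 to 4.91) and *Antxr2* in mouse 2 (1025 against 824 to 832). Libraries taken after 4 h that stood high also included *Scd2* in mouse 1 (441 against 212 to 228), *AA986860* in mouse 2 (4.12 against 3.44 to 3.50), *Scd1* in mouse 1 (27.0 against 6.13 to 8.40) and *Tulp3* in mouse 1 (31.6 against 28.3 to 28.8). Libraries taken after 4 h that stood high also included *Chst11* in mouse 1 (22.6 against 11.8 to 13.6), *Nhsl2* in mouse 2 (78.1 against 57.2 to 58.7), *Raet1e* in mouse 4 (4.596 against 2.87 to 3.14) and *N4bp1* in mouse 2 (209.7 against 182 to 186). Libraries taken after 4 h that stood low included *Sel1l3* in mouse 2 (13.7 against 24.7 to 26.2), *Dtnb* in mouse 3 (3.98 against 5.13 to 5.31) and *Ppp2r1b* in mouse 1 (99.9 against 112 to 113). The change at 4 h differed from that at 1 h, by the test of 4 h against 1 h over all genes, in 161 of the 168 late risers, a difference that the rule itself asks for.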

How the results depend on the processing

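The limits of the rule set the number of late risers. With no minimum mean there were 280, with 1 h ratios from 0.9 to about 1.1 there were 73, and with 4 h ratios of at least 2.5 there were 50, against 168. TMM and RLE scaling gave 136 and 137, 1 CPM added to each mean gave 146, and groups that do not overlap gave 159. Leaving out 1 mouse gave 154 to 175, and 89 genes were chosen under every scaling, added value, overlap and left-out setting. With the mouse as a replicate block, 48 rather than 31 late risers were called at 1 h, 168 rather than 164 at 4 h, and 168 rather than 161 at 4 h against 1 h. Leaving out 1 library gave 23 to 32, 161 to 165 and 153 to 163 in these comparisons, and counts stayed within 1.5 times under RLE scaling, library size only, no filter, limma-voom and DESeq2. The cause of these shifts was not tested. Over the named genes, in the comparisons of 4 h with untreated and with 1 h, 2827 values kept their direction and side of the threshold, 17 newly passed it, 36 no longer passed it and 0 turned in direction. The changes at 1 h were not tallied by gene. The 4 h call of *Oas3* was lost without untreated mouse 1, 2 or 4 or 4 h mouse 3 (adjusted p by edgeR 0.0547 to 0.0763), that of *Oasl1* without untreated mouse 1 or 4 or 4 h mouse 3 (0.0516 to 0.0564), and that of *Timp1* without untreated mouse 4 (0.0576) or 4 h mouse 1 (0.0670). *Scd1* gained it without untreated mouse 1 (0.0473) and also with no filter on low counts (0.0349), and *Myom1* gained it without 4 h mouse 4 (0.0476). Against 1 h, *Cxcl14*, *Oasl1*, *Chst11*, *Smco3*, *Raet1e* and *Cdkl2* lost their call without 1 of several libraries (0.05003 to 0.127), and *Scd1*, *Oas3* and *Timp1* gained it (0.0378 to 0.0441). *Oas3* also gained it with no filter on low counts (0.0473), and *Timp1* with library size only (0.0366). Of 409 pathway list genes tested, 250 were called at 4 h and 147 at 1 h, where 40.03 and 20.1% of all genes were, and 294 and 191 with the block, where 47.4 and 27.0% were. At untreated levels under 2 CPM, as in 25 of the 168, counting error limits the ratios.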
